A study of Mus musculus with 25 samples.

Results

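The miR-183 cluster is a group of 3 microRNA hairpins, mmu-mir-183, mmu-mir-96 and mmu-mir-182, that lie close together on mouse chromosome 6 and are known to be made from a shared primary transcript. Its members were taken by name, 3 of the 1193 precursors in a table of small RNA counts from blood. The donors were male mice of the inbred strain C57BL/6 at 2, 9, 15, 24 and 30 months of age, with 5 libraries at each age and no treatment named in the labels. Each of the 25 libraries has its own number in its title, without a statement that the numbers are separate animals, so p-values measure only the spread between libraries. Total RNA and a TruSeq small RNA kit were used, and no sorting of blood cells is named. Fewer cells of a type and less of a microRNA per cell therefore cannot be told apart in any value below.

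The cluster is best known from sensory organs. Its microRNAs are abundant in photoreceptors and in the hair cells of the inner ear, and changes in the seed of miR-96 cause hearing loss in mice and humans. In mouse T cells miR-182 is induced after activation and lowers Foxo1, a transcription factor that restrains proliferation, and the whole cluster has been tied to the same factor in Th17 cells. A microRNA acts through its seed, the bases at positions 2 to 8 from its 5′ end, which pair with target messages.

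The 5′ arms, which give the well-studied microRNA of each hairpin, are shown with the seed in capitals, because they show how alike the members are and what a read has to differ by to be assigned to one of them.
mmu-miR-183-5p: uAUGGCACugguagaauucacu
mmu-miR-96-5p: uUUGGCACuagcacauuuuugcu
mmu-miR-182-5p: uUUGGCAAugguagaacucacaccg
The sequences are those of RefSeq on GRCm38.p6, whose table held all 3 hairpins. The 3 seeds differ from each other and all hold the bases GGCA, which occur in the seed of 48 of 1738 mature mouse microRNAs in that table (2.76%). miR-182-5p and miR-183-5p were identical at 18 of the 22 positions compared without gaps (81.8%) and differed at U2A, A8C, C17U and A22U, counted from the 5′ end with the miR-182-5p base first. miR-182-5p and miR-96-5p shared 12 of 23 positions and their seeds differed at A8C alone. miR-96-5p and miR-183-5p shared 13 of 22 positions, with U2A as the difference in the seed. In the RefSeq table miR-1271-5p has the same seed as miR-96-5p, and no other mature microRNA has the seed of miR-182-5p or miR-183-5p.

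The unit counted was the hairpin, with its 5′ and 3′ arms taken as 1 row. The hairpins are shown with both mature arms in capitals.
mir-183: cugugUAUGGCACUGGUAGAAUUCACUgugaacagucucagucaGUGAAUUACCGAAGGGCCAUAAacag
mir-96: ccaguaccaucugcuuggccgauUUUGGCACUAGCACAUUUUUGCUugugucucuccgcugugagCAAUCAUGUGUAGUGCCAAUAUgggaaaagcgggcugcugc
mir-182: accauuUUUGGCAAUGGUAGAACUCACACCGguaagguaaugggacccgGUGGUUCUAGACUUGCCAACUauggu
On GRCm38.p6 they lie on the minus strand, mir-183 at chr6:30169668-30169737, mir-96 at chr6:30169446-30169551 and mir-182 at chr6:30165918-30165992. The sources used here do not name the build behind the counts. mir-183 and mir-96 are 116 bases apart, mir-96 and mir-182 are 3453 bases apart, and the whole cluster spans 3820 bases. GENCODE vM21 places no other gene across it. The nearest gene is Rncr4, a long noncoding RNA first described in the mouse retina, which lies 3156 bases away on the opposite strand. The nearest protein-coding genes are Nrf1 at 12460 bases and Ube2h at 41552 bases.

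Library totals ran from 4.88 to 24.3 M counts, where M stands for 1e6, with a median of 15.4 M. They were lowest at 30 months, at 9.89 ± 2.71 M, against 18.8 ± 2.81 M at 2 months (SD, n = 5 each). The 2 libraries under 6 M were 24 months replicate 4 and 30 months replicate 3. CPM below are counts per 1e6 of a library size scaled by TMM (trimmed mean of M-values). A floor of 3 counts was 0.528 CPM in the library with the smallest scaled size and 0.118 CPM in the one with the largest. Red cell microRNAs on a list of 18 hairpins took 80.7% ± 1.35 of all counts in the 30-month libraries, against 81.8% ± 0.276 in the 2-month ones.

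The members were far from equal in blood. mir-182 had 23343 counts over the 25 libraries, 94.6% of the cluster's counts, mir-183 had 1294 (5.25%) and mir-96 had 28 (0.114%). Per library, mir-182 had 544 to 1980 counts, mir-183 had 33 to 87 and mir-96 had 0 to 5. Counts of different hairpins also reflect how well each sequence is ligated and amplified, so these shares do not give the molar amounts. mir-182 ranked 93rd and mir-183 189th of all precursors by mean CPM, at 68.4 and 3.62 CPM.

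mir-182 was higher in old blood, although not past the threshold once the library total was a covariate (values below). At 30 months its level was 2.68 times that at 2 months, and every library of 30 months lay above every library of 2 months. At 2 months the 5 libraries held 43.2, 38.5, 37.8, 43.1 and 38.5 CPM. At 9 months they held 51.5, 44.2, 60.8, 51.9 and 61.6 CPM, all above the highest 2-month value and close to it in replicate 2. At 15 months they held 48.2, 103, 45.3, 43.0 and 64.4 CPM, of which replicate 2 stood far above the rest and replicate 4 overlapped the 2-month range. At 24 months they held 56.1, 76.4, 48.1, 162 and 52.6 CPM, and at 30 months 77.6, 114, 207, 59.5 and 80.2 CPM. Both ages lay wholly above 2 months, and their highest values were those of the 2 libraries under 6 M counts.

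The mean level of mir-182 increased with each age, at 40.2 ± 2.67, 54.0 ± 7.27, 60.8 ± 25.0, 79.1 ± 47.7 and 108 ± 59.1 CPM for 2, 9, 15, 24 and 30 months (SD, n = 5 each). The medians did not, at 38.5, 51.9, 48.2, 56.1 and 80.2 CPM for the same ages, with a lower value at 15 than at 9 months. The libraries of an age also spread more at the later ages, with an SD that was 6.64% of the mean at 2 months, 13.5% at 9 months, 41.2% at 15 months, 60.3% at 24 months and 54.8% at 30 months. The spread at 15, 24 and 30 months rested in part on the highest library of each age, at 15 months replicate 2 (103 CPM). Without the 2 libraries under 6 M, levels were 58.3 ± 12.5 CPM at 24 months, below the 15-month mean, and 82.8 ± 22.7 CPM at 30 months (SD, n = 4 each). The spread across ages was therefore not uniform, while the tests below assume 1 dispersion for all ages.

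**Figure D1:**
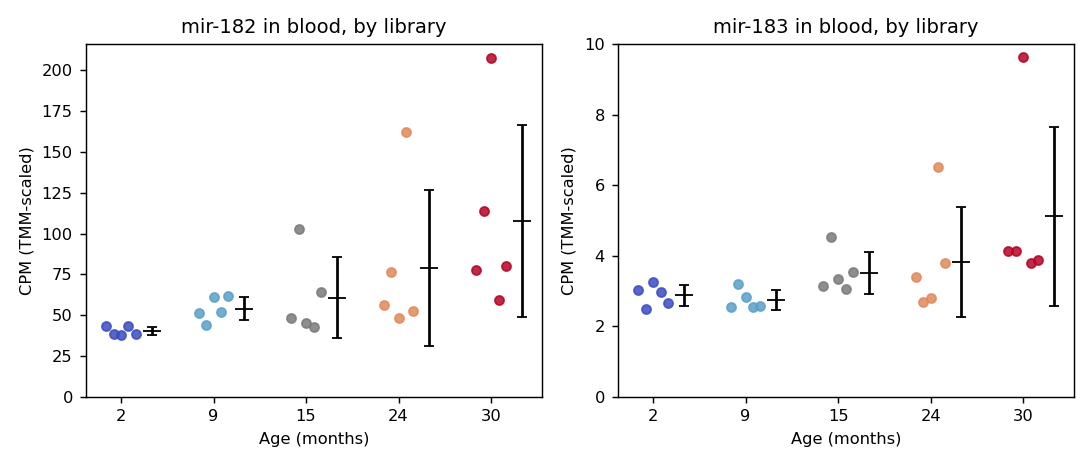
Level of mir-182 (left) and mir-183 (right) in each blood library, in CPM (TMM-scaled), by age in months. Points are the 5 libraries of an age and bars are mean ± SD. The highest points, 162 CPM of mir-182 at 24 months and 207 CPM at 30 months, come from the 2 libraries under 6 M counts, which are also highest in mir-183, at 6.51 and 9.64 CPM.

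In a quasi-likelihood fit of all 25 libraries by edgeR, with Benjamini-Hochberg adjustment over all precursors that passed its filter, mir-182 rose by 1.42 log2 units at 30 against 2 months (SE 0.32, adjusted p = 0.00652). Its rise at 24 against 2 months was 0.97 (SE 0.32, adjusted p = 0.0486 by edgeR). At 15 against 2 months its log2 change was 0.59 (SE 0.32, adjusted p = 0.775) and at 9 against 2 months 0.42 (SE 0.32, adjusted p = 0.811), neither past the 0.05 threshold of the edgeR test. A linear trend gave 0.48 log2 units per 10 months (SE 0.09, adjusted p = 7.85e-04 by edgeR). A difference between any of the 5 ages also passed (adjusted p = 0.0370 by edgeR).

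No step between consecutive ages passed by edgeR. The log2 change of mir-182 was 0.17 (SE 0.32) at 15 against 9 months, 0.38 (SE 0.32) at 24 against 15 months and 0.45 (SE 0.32) at 30 against 24 months, with adjusted p of 0.997, 0.725 and 0.885 by edgeR. In the order of the 5 means, no neighbours therefore passed this test. Its SE comes from 1 dispersion for all ages, not from the spread of the compared ages alone. With only the 9- and 2-month libraries in the fit, the log2 change was 0.42 with a smaller SE (0.11, adjusted p = 0.0765 by edgeR). That value did not pass either. The call at 24 months lay close to the threshold. Without replicate 4 the log2 change was 0.53 (adjusted p = 0.224 by edgeR), and in all the call ended in 7 of the 10 fits without 1 library.

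mir-183, the first hairpin of the transcript, passed as higher at 30 months and at none of the other ages compared with 2 months. At 2 months its libraries held 3.02, 2.48, 3.24, 2.98 and 2.67 CPM, at 9 months 2.54, 3.21, 2.84, 2.54 and 2.57 CPM, and at 15 months 3.13, 4.52, 3.34, 3.05 and 3.55 CPM. At 24 months they held 3.39, 2.67, 2.80, 6.51 and 3.79 CPM and at 30 months 4.14, 4.14, 9.64, 3.80 and 3.87 CPM. The 2- and 9-month ranges overlap almost wholly, the 15- and 24-month libraries straddle the upper end of the 2-month range, and all 5 libraries of 30 months lie above it.

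Means of mir-183 were 2.88 ± 0.304 CPM at 2 months, 2.74 ± 0.290 at 9 months, 3.52 ± 0.594 at 15 months, 3.83 ± 1.56 at 24 months and 5.12 ± 2.53 at 30 months (mean ± SD of 5 libraries). At 30 against 2 months mir-183 rose by 0.80 log2 units (SE 0.24, adjusted p = 0.0285 by edgeR). Against 2 months its log2 change was 0.35 (SE 0.24, adjusted p = 0.382) at 24 months, 0.29 (SE 0.24, adjusted p = 0.896) at 15 months and −0.07 (SE 0.24, adjusted p = 0.963) at 9 months in the edgeR test. The approximate 95% interval of the 9-month value runs from −0.54 to 0.40. The trend was 0.28 log2 units per 10 months (SE 0.07, adjusted p = 0.00887 by edgeR), and the test of any age did not pass (adjusted p = 0.0937 by edgeR). In the order of means, 9, 2, 15, 24 and 30 months, no neighbours passed the edgeR test, whose last step, 30 against 24 months, was 0.46 (SE 0.24, adjusted p = 0.885).

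**Figure D2:**
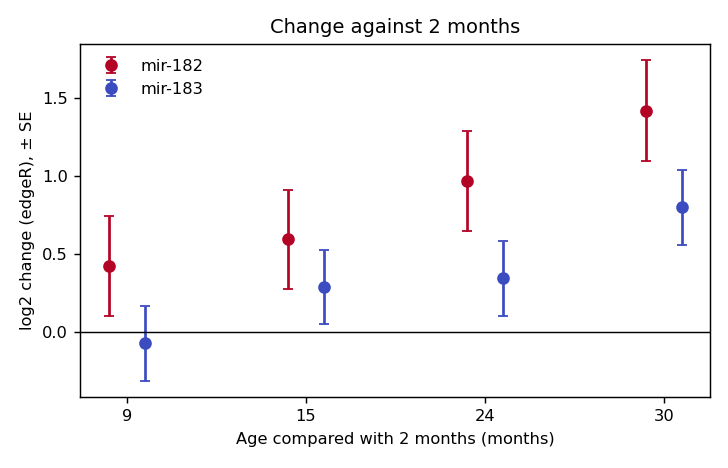
log2 change of mir-182 and mir-183 against 2 months (edgeR), by the age compared in months; bars are ± SE. mir-182 lies at 0.42, 0.59, 0.97 and 1.42 and mir-183 at −0.07, 0.29, 0.35 and 0.80.

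Both tested members, 2 of 2, passed as higher at 30 against 2 months and in the trend. Of all tested precursors, 14.2% passed in either direction at 30 against 2 months and 9.17% passed as higher, while 19.8% passed the trend in either direction and 10.7% as higher. At 24 against 2 months 12.1% passed and 7.69% as higher, and 7.99% passed the test of any age. Where neither member passed, the shares were 2.07% (1.18% as higher) at 9 against 2 months, 1.48% (0.592% as higher) at 15 against 2 months and 2.07% (1.78% as higher) at 24 against 15 months. They were 0% at 15 against 9 and at 30 against 24 months. Groups that did not overlap, with the older one higher, were found for 5.62% of tested precursors at 30, 5.03% at 24, 0.888% at 15 and 1.78% at 9 against 2 months. Between consecutive ages those shares were 0% at 15 against 9, 1.78% at 24 against 15 and 0.888% at 30 against 24 months. The median log2 change of all tested precursors was −0.04 at 30 against 2 months.

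Scaling moved these values without ending the calls at 30 months. With library totals in place of TMM factors the median of all precursors shifted by 0.24 log2 units at 30 against 2 months, and relative to that median mir-182 stood at 1.53 and mir-183 at 0.88, against 1.46 and 0.84 with TMM. The column names carry a sequencing lane, from 3 to 8, and the ages were spread unevenly over the 6 lanes. In the 4 lanes that held both ages (5, 6, 7 and 8), mir-182 was higher at 30 than at 2 months by 0.63, 1.06, 1.40 and 2.43 log2 units, and mir-183 by 0.62, 0.30, 0.48 and 1.85. These compare 1 library of each age, with 2 of 30 months in lane 6, and lane 8 holds 30 months replicate 3 (5.75 M counts). Every 30-month library lay above every 2-month one in both members. The signs within lanes were therefore fixed in advance and are no check on lane. The lanes with 24 and 2 months (4, 5, 7 and 8) held 1 library of each of these ages. The differences there were 1.91, 0.45, 0.38 and 0.99 for mir-182 and 1.11, 0.61, 0.19 and 0.0051 for mir-183. Lane 4 holds 24 months replicate 4 (4.88 M counts). All 24-month libraries lay above all 2-month ones in mir-182, so its signs were again fixed. Lane 3 held neither 2- nor 30-month libraries.

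Library size moved with these levels. The library with the fewest counts, 24 months replicate 4, ranked 2nd of 25 in both members, and the one with the next fewest, 30 months replicate 3, ranked 1st in both. As raw counts, mir-183 had 49.0 ± 12.6 per library at 30 months, against 48.4 ± 9.07 at 2 months, and mir-182 had 1027 ± 343 in the 30-month libraries against 677 ± 124 in the 2-month ones (SD, n = 5 each). Without the 2 libraries under 6 M, mir-182 averaged 82.8 ± 22.7 CPM at 30 months (n = 4) against 40.2 ± 2.67 CPM at 2 months (n = 5), which is a rise of 1.09 log2 units (SE 0.22, adjusted p = 0.00201 by edgeR). mir-183 then averaged 3.99 ± 0.177 CPM at 30 months and 2.88 ± 0.304 CPM at 2 months, a log2 change of 0.52 (SE 0.15, adjusted p = 0.0194 by edgeR). Without 30 months replicate 3 alone, mir-183 stood at 0.52 and did not pass (adjusted p = 0.0750 by edgeR).

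With the library total as a covariate, neither member passed. The log2 change at 30 against 2 months was then 0.51 (SE 0.27, adjusted p = 0.293 by edgeR) for mir-182 and 0.17 (SE 0.22, adjusted p = 0.679 by edgeR) for mir-183. For mir-182 and mir-183 the trends were 0.18 (SE 0.09, adjusted p = 0.186) and 0.09 (SE 0.07, adjusted p = 0.460) log2 units per 10 months by edgeR. Library total and age move together in these data, which limits how far a single fit can separate them. Without the 2-month libraries, the slopes were 0.49 and 0.39 log2 units per 10 months and neither passed (adjusted p = 0.0600 for each by edgeR). Thinning every library to the smallest total left mir-182 at 1.49 (SE 0.31, adjusted p = 0.00256 by edgeR) and mir-183 at 0.58 (SE 0.32, adjusted p = 0.249 by edgeR). Random thinning keeps the proportions within a library, so it cannot separate library total from age. The SE of mir-183 was 0.24 before thinning. The call of mir-183 also ended with no filter (0.78, adjusted p = 0.0688 by edgeR) and with only the 2 ages compared in the fit (0.83, adjusted p = 0.0565 by edgeR).

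**Figure D3:**
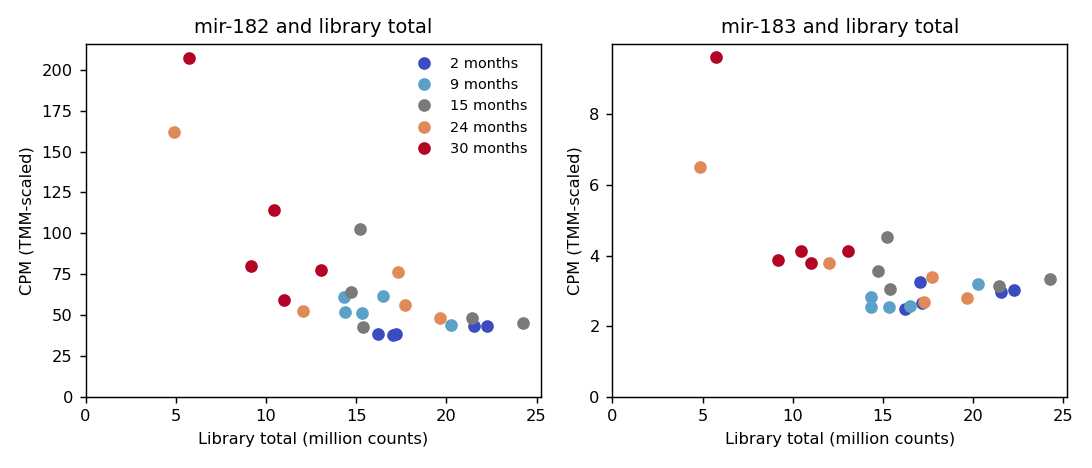
CPM (TMM-scaled) of mir-182 (left) and mir-183 (right) against the library total in M counts; each point is a library, coloured by age. The highest levels stand at the smallest totals, 207 CPM of mir-182 at 5.75 M and 162 CPM at 4.88 M.

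mir-96, the middle hairpin and the member tied to hearing, was barely detected. It had no counts in 11 of the 25 libraries and did not pass the edgeR filter. Summed over the 5 libraries of an age it had 5 counts at 2 months, 8 at 9 months, 4 at 15 months, 6 at 24 months and 5 at 30 months. Pooled levels with their 95% Poisson intervals, which cover counting error only, were 0.0975 CPM (0.0317 to 0.228) at 30 months and 0.0598 CPM (0.0194 to 0.139) at 2 months. The intervals overlap. In the unfiltered edgeR fit, its log2 change at 30 against 2 months was 0.65 and did not pass (SE 0.99, adjusted p = 0.840).

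Dividing the counts of members within a library removes the library's scaling. The ratio of mir-182 to mir-183 counts was 18.7, 27.5, 21.5, 15.6 and 20.7 at 30 months, against 14.3, 15.5, 11.6, 14.4 and 14.5 at 2 months. The ranges did not overlap, although the lowest 30-month and the highest 2-month values lay close. Mean ratios were 14.1 ± 1.45 at 2 months, 19.97 ± 3.76 at 9 months, 16.8 ± 3.77 at 15 months, 20.2 ± 6.22 at 24 months and 20.8 ± 4.37 at 30 months (mean ± SD of 5 libraries).

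On the log2 scale, with 0.5 added to each count, the ratio was higher by 0.55 (SE 0.15) at 30 against 2 months, with p = 0.00794 in a two-sided exact permutation test. That is the smallest p this design of 5 against 5 allows. It became 0.119 after adjustment over the 15 ratio tests and did not pass. The ratio differed by 0.48 at 24 against 2 months (exact permutation p = 0.0397, adjusted p = 0.149), by 0.24 at 15 months (p = 0.206, adjusted p = 0.442) and by 0.48 at 9 months (p = 0.0397, adjusted p = 0.149). Its slope was 0.15 per 10 months over 25 libraries (permutation p = 0.0239, adjusted p = 0.149). With that smallest p, no comparison of 5 against 5 could pass on its own after adjustment over the 15 tests. These comparisons therefore do not decide whether mir-182 rose more than mir-183, and the slope did not pass. Ratios with mir-96, in which a library at 0 counts takes a value set by the added 0.5, had adjusted p of 0.381 to 0.873 in the same permutation tests.

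**Figure D4:**
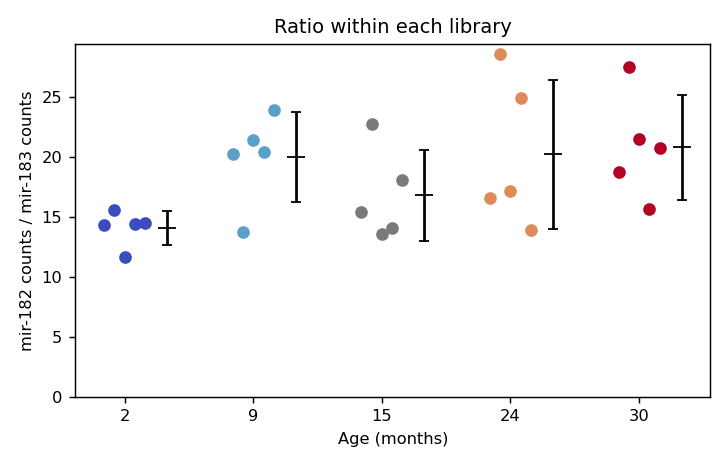
Ratio of mir-182 to mir-183 counts in each library, by age in months; points are the 5 libraries of an age and bars are mean ± SD. The 30-month libraries lie between 15.6 and 27.5 and the 2-month libraries between 11.6 and 15.5.

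Within ages, libraries high in CPM of mir-183 tended to be high in CPM of mir-182. Over the deviations of log2 CPM from the age mean in 25 libraries, Pearson's r was 0.80 (permutation within ages, p = 0.00459, adjusted over 3 pairs 0.00688) and Spearman's rho was 0.47 (p = 0.0426, adjusted 0.0639). Leaving out the 2 libraries farthest from the median of mir-183, which were the 2 under 6 M, gave an r of 0.51 over 23. The relation therefore rests in part on those 2 libraries. Both members are also divided by the same library size, a link that the permutation breaks. The p-values of these correlations therefore do not tell shared scaling from shared levels. For mir-96, r was 0.63 with mir-183 (permutation p = 0.00102, adjusted 0.00306) and 0.48 with mir-182 (permutation p = 0.0455, adjusted 0.0455), and rho was 0.59 (p = 0.00400, adjusted 0.0120) and 0.28 (p = 0.255, adjusted 0.255). Those values are sparse counts in which a library at 0 takes a value set by its size, and without the same 2 libraries r was 0.51 and 0.26.

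Among precursors with a mean of at least 10 CPM, mir-322 was the most like mir-183 by the same deviations, at r = 0.84 over 25 libraries and 0.59 over 23 without the libraries under 6 M. It was followed by mir-182, then mir-130b at 0.75 and mir-22 at 0.74. The most like mir-182 were mir-532 at 0.72, mir-322 at 0.68, mir-22 at 0.64 and mir-222 at 0.63, and without those 2 libraries these were 0.44, 0.24, 0.28 and 0.41. For mir-96 they were mir-322 at 0.75, mir-148b at 0.72, mir-29a at 0.65 and mir-106b at 0.63, and without those 2 libraries 0.72, 0.70, 0.64 and 0.51. The mir-96 values rest on 0 to 5 counts a library, and a library at 0 takes a value set by its size. The points share the library scaling, and these are descriptions with no test. With age, mir-322 rose by 0.36 log2 units per 10 months (adjusted p = 0.00718 by edgeR), while mir-22 stood at 0.00 (adjusted p = 0.989 by edgeR).

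Other microRNAs known to lower Foxo1, the target shared by the cluster in T cells, were listed beside it. For all list counts here, 9.17% of tested precursors passed as higher at 30 against 2 months and 14.2% in either direction, with a median log2 change of −0.04, and the lists were chosen with earlier results of these data known. Of 8 Foxo1-lowering microRNAs listed, 4 were tested, and 3 of them rose and none fell by edgeR and by DESeq2, with a median log2 change of 0.75. By limma-voom 2 of the 4 passed as higher. In the trend and at 24 against 2 months 2 of the 4 passed as higher by edgeR, against 10.7% and 7.69% of all tested precursors. The leading members were mir-223 at 1.44 (SE 0.17, adjusted p = 1.65e-06) and mir-27a at 0.58 (SE 0.19, adjusted p = 0.0426) by edgeR, which are also on the myeloid list. In the sensory and neural list, the setting in which the cluster is best known, 0 of 9 tested members rose and 1 fell at 30 against 2 months, mir-211 at −3.30 (SE 0.61, adjusted p = 6.58e-04 by edgeR), with a median of −0.19 over the list. A count of 1 in 9 is near the 14.2% over all tested precursors.

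Lists for the cells of blood moved as follows at 30 against 2 months by edgeR. Of 18 erythroid members 0 rose and 1 fell, mir-144 at −1.41 (SE 0.35, adjusted p = 0.0101 by edgeR), with a median of −0.19. Their summed level was 653860 to 912121 CPM at 30 months and 855877 to 1020232 CPM at 2 months. CPM use the scaled library size, so a sum can pass 1e6. Of 7 myeloid members 4 rose and none fell (median 0.43), of which limma-voom called 3, and their summed level was 18516 to 26067 CPM at 30 months and 19206 to 23641 CPM at 2 months. Of 9 lymphoid members 0 passed in either direction by edgeR, with 3 at an unadjusted p under 0.05. DESeq2 called 1, as lower, and limma-voom called 0. The lymphoid median was −0.03, at 1260 to 2087 CPM in sum at 30 months and 1630 to 2254 CPM at 2 months. Of 7 platelet and endothelial members 1 rose and 3 fell (median −0.996), with sums of 443 to 1104 CPM at 30 months and 680 to 868 CPM at 2 months. Of 5 epithelial members 1 rose, mir-203, and 1 fell, mir-205, a call not made by limma-voom (median −0.999), with sums of 36.7 to 94.1 CPM at 30 months and 68.8 to 127 CPM at 2 months. The other counts of calls at 30 against 2 months were equal by edgeR, DESeq2 and limma-voom. No matched member of any list was at 0 in all libraries. Whether these cells bear on the levels of mir-182 and mir-183 was not tested.

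**Figure D5:**
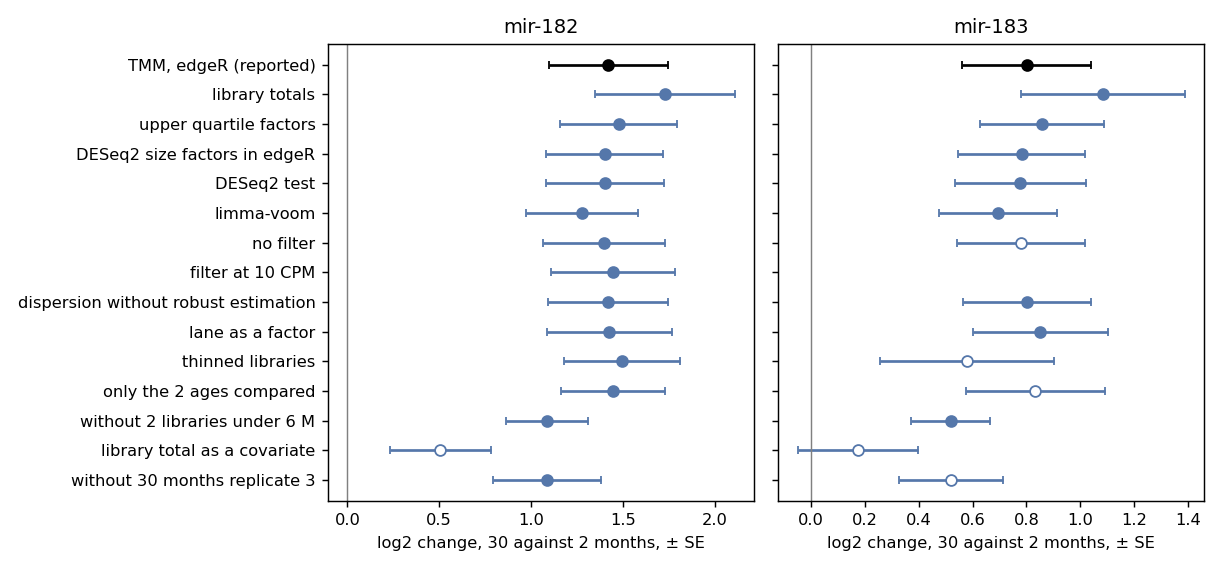
log2 change of mir-182 (left) and mir-183 (right) at 30 against 2 months under each setting, ± SE; filled points passed an adjusted p of 0.05, open points did not, and mir-183 has no value with the filter at 10 CPM. mir-182 passed in every setting shown but the one with the library total as a covariate, where it stood at 0.51.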

How the data were processed

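The authors deposited 1 table of raw counts, the reads assigned to each microRNA precursor in each of 25 libraries. Per the submitters' processing notes the programs included Trimmomatic 0.36, SAMtools 1.3.1-9 and bcl2fastq 1.8.4, with no steps described. The sources used here do not name the aligner, the counter, the genome build, the microRNA release or how reads matching several hairpins were handled. Replicates were numbered in accession order and pair no samples. Tests used edgeR 4.0.16 in R 4.3.3 (glmQLFit, TMM factors, filterByExpr by age, robust dispersion, 1 fit of 25 libraries), with Benjamini-Hochberg adjustment over 338 precursors. The fit was also run on simulated counts with the same dispersion at all ages, which does not cover the uneven spread of mir-182. DESeq2 1.42.0 and limma 3.58.1 were alternatives. Ratios and correlations used scipy 1.17.1 and numpy 2.4.6, with two-sided exact or 100000-resample permutation tests. Intervals and floors cover counting error only, and no molecular identifiers are named. Named precursors were the 3 members, the 4 most like each by r, up to 2 of each list by the trend's p, and mir-451a. Members and lists were chosen with earlier results of these data known. On the lists, mir-424 and 3 mir-124a hairpins were not matched by name. Sequences and positions are from RefSeq and GENCODE vM21 on GRCm38.p6.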

Additional observations from a re-analysis of the deposited data

Results flagged for a closer look

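Among 15 groups of 5 libraries checked (mir-182 CPM, mir-183 CPM and their count ratio at each age), 3 held a library far from the other 4 by Dixon's ratio, where chance gives about 1 in 20. The groups are not independent, since the members share libraries and the count ratio is made from both. For mir-183 at 24 months Dixon's ratio, 0.7101, barely passed the critical value of 0.71. At 24 months replicate 4 stood at 162 CPM of mir-182, with the others between 48.1 and 76.4 CPM, and at 6.51 CPM of mir-183, with the others between 2.67 and 3.79 CPM. At 30 months replicate 3 stood at 9.64 CPM of mir-183, with the others between 3.80 and 4.14 CPM. These 2 libraries had the smallest totals, 4.88 and 5.75 M counts. Their ratios of mir-182 to mir-183, 24.9 and 21.5, lay inside the range of their ages.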

How the results depend on the processing

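At 30 against 2 months mir-182 stayed past the threshold in the fits without 1 library and in all other settings but the library total as a covariate (0.51). mir-183 ended its call there with no filter (0.78), thinned libraries (0.58), only the 2 ages compared (0.83), the library total as a covariate (0.17) and without 30 months replicate 3, with 0.52 to 0.94 over the fits without 1 library. The causes were not tested. At 24 against 2 months mir-182 did not pass with upper quartile factors (0.996), limma-voom (0.81), no filter (0.96), dispersion without robust estimation (0.97), lane as a factor (0.84), without the 2 libraries under 6 M counts (0.57) or with the total as a covariate (0.38), and it ranged between 0.53 and 1.13 without 1 library. The trend per month lost its call for mir-183 when thinned (0.0233), and for both without the 2-month group (mir-182 0.0495, mir-183 0.0386) and with the covariate (mir-182 0.0178, mir-183 0.00865).

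The adjusted p of any age for mir-182 was 0.0683 with limma-voom, 0.148 with no filter, 0.0922 with lane as a factor and 0.637 with the covariate, and 0.00742 to 0.0643 without 1 library. For mir-183 it was 0.0420 with upper quartile factors, 0.0338 with DESeq2 and 0.0415 without the 2 libraries under 6 M, and 0.0428 to 0.140 without 1 library. Signs turned, always for values that did not pass, for mir-183 at 9 against 2 months with library totals (0.056) and at 15 against 2 months when thinned (−0.025). At 24 against 15 months they turned for mir-183 with limma-voom (−0.024), no filter (−0.039), without the 2 libraries under 6 M (−0.17) and with the covariate (−0.23), and for mir-182 in the last pair (−0.068 and −0.11). Without 1 library, the ranges there were −0.18 to 0.18 for mir-183 and −0.094 to 0.63 for mir-182, and at 15 against 9 months −0.080 to 0.30 for mir-182.

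The ratio of mir-96 to mir-182 at 9 against 2 months turned with 1 added to each count (−0.020) and when thinned (−0.93), with −0.31 to 0.46 without 1 library. The ratio of mir-96 to mir-183 turned when thinned at 9 (−0.11) and 24 (0.16) against 2 months, with −0.34 to 0.27 at 24 and −0.74 to 0.083 at 30 months without 1 library. The correlation of mir-182 with mir-96 fell below the threshold with upper quartile factors (r = 0.40).

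The number of precursors called changed by over 1.5 times in these cases. At 9 against 2 months it was 4 with upper quartile factors and with lane, against 7, and 3 to 7 without 1 library. At 15 against 2 months it was 3 with library totals, limma-voom, the filter at 10 CPM, lane and thinning and 2 with only the 2 ages, against 5, and 3 to 4 without 1 library. At 24 against 2 months it was 72 with library totals and 24 with upper quartile factors, no filter and the filter at 10 CPM, against 41, and 23 to 36 without 1 library. At 30 against 2 months it was 15 with no filter, 30 with only the 2 ages and 21 with the covariate, against 48. At 24 against 15 months it was 16 with library totals, 2 with upper quartile factors, 1 with no filter, 3 when thinned and 0 with only the 2 ages, against 7, and 1 to 7 without 1 library. At 30 against 24 months it was 1 without the 2 libraries under 6 M, against 0. For any age it was 44 with library totals, 17 with no filter and 16 with lane and with the covariate, against 27, and 14 to 33 without 1 library. For the trend it was 39 with no filter, 43 with the filter at 10 CPM, 9 without the 2-month group and 30 with the covariate, against 67, and 43 to 71 without 1 library.

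mir-183 has no value with the filter at 10 CPM. Leaving out the 2 libraries under 6 M and adding the library total as a covariate were chosen after seeing the data. No paired analysis was possible because the replicate numbers follow accession order and pair no samples across ages. Depth limits mir-96, and mir-183 at 33 to 87 counts a library.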

Other observations

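Set against mir-451a, a microRNA of red cells, mir-182 amounted to 904, 1333, 3436, 624 and 962 per 1e6 counts of mir-451a at 30 months, and to 387, 357, 463, 469 and 480 at 2 months. All 5 libraries of 30 months lay above those of 2 months, and the highest was again replicate 3. mir-183 amounted to a median of 48.2 and a lowest value of 39.9 at 30 months, and to a median of 32.4 and a highest value of 39.8 at 2 months, with almost no gap between the ranges. On this scale 9.79% of the tested precursors had all 30-month libraries above all 2-month ones and 1.78% had them below, against 5.62% above in CPM. mir-451a, the denominator, changed by −0.21 log2 units at 30 against 2 months (SE 0.14, adjusted p = 0.347 by edgeR).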
